A study of Rattus norvegicus with 18 samples.

Results

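The 8 genes described here carry out antigen presentation by major histocompatibility complex (MHC) class I and class II molecules. They were taken by gene symbol, as the array's annotation gives it, from 11018 genes measured with 1 probe set each on rat Affymetrix arrays, and all 8 were present: Cd74, RT1-Da and RT1-Ba for class II, and Tap1, Tap2, Psmb8, Psmb9 and B2m for class I. The study has 18 arrays in 4 groups. LMEC_0h is microvascular endothelium from rat lung, profiled straight after isolation (5 arrays). LSEC_0h is sinusoidal endothelium from rat liver, profiled straight after isolation (5 arrays), and LSEC_2h and LSEC_42h are liver sinusoidal endothelium kept for 2 h and 42 h on collagen-coated plastic (4 arrays each). All cells were purified by enzymatic digestion, a density gradient and magnetic sorting, and carried no transgene, treatment or allele that the labels name. The labels give no strain, sex or age, and do not say which arrays came from separate animals, so the spread between arrays may be partly technical. Array numbers below are those of the labels. Values are log2 expression as deposited, differences are log2 differences with their standard error (SE), and genes whose adjusted p in limma was below 0.05, with adjustment over all 11018 genes, are termed called.

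Nucleated cells show peptides from their own cytosol on class I molecules, which pair a heavy chain with the light chain B2m. Those peptides are cut by the proteasome, whose immunoproteasome form holds the inducible subunits Psmb8 and Psmb9, and are pumped into the endoplasmic reticulum by the Tap1 and Tap2 transporter. Class II molecules, in the rat RT1-B and RT1-D, carry peptides from ingested proteins, and Cd74, the invariant chain, guards their groove until they reach the endosome. Class II is typical of dendritic cells, B cells and macrophages. Sinusoidal endothelium of the liver is known for strong uptake of circulating antigen, and Kupffer cells, the liver's resident macrophages, lie beside it. Transcripts of those cells, C1qa, a chain of complement C1q, and Clec4f, a Kupffer cell lectin, are therefore both given beside each result.

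The members lie close together: 6 of 8 are on chromosome 20 of the GRCr8 assembly within 159.0 kb, the rat MHC. RT1-Da runs at chr20:4515393-4520387 and RT1-Ba at chr20:4577057-4581650, followed by Tap2 (chr20:4638257-4652296, minus strand), Psmb8 (chr20:4654068-4657049, minus strand), Tap1 (chr20:4658171-4668543, minus strand) and Psmb9 (chr20:4668952-4674421, plus strand). Cd74 is at chr18:56527071-56536406 and B2m at chr3:129549236-129555354. RefSeq promoter sequence was found for all 8. The 250 bases before each start were searched on both strands for letters of known control elements, chosen with these promoters in view. The class II promoters are shown first, because their 3 genes varied together across the arrays. Capitals mark the X box letters CTNGNAAC, to which the RFX complex is known to bind, and the Y box letters CTGATTGG, which hold CCAAT on the other strand, or CCAAT itself in Cd74.
RT1-Da, chr20:4515320-4515380, plus strand: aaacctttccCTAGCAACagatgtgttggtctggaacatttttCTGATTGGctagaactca
RT1-Ba, chr20:4576968-4577028, plus strand: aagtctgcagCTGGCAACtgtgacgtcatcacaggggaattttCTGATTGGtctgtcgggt
Cd74, chr18:56526977-56527031, plus strand: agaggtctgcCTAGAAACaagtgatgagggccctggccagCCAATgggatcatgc
The X and Y letters stood 25 bases apart in both RT1-Da and RT1-Ba. The spacing was read from these 2 promoters, so their own matches were given in advance. No other of the 33469 promoters searched held that exact arrangement. Alone, the X letters occurred in 11.4% of promoters, the Y letters in 3.19% and CCAAT in 34.0%. In Cd74 the X letters and CCAAT were 22 bases apart.

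The class I promoters that held letters of an interferon-stimulated response element (GAAA, any 2 bases and GAAA again, on either strand, 3.41% of promoters) or of an NF-kB site (the second run of capitals in Tap1, on either strand, 0.0956% of promoters) are shown for comparison, with those letters in capitals.
Tap1, chr20:4668579-4668674, minus strand: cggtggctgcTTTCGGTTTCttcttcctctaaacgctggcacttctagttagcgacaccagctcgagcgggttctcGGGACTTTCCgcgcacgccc
Tap2, chr20:4652318-4652347, minus strand: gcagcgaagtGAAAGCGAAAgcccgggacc
B2m, chr3:129549170-129549212, plus strand: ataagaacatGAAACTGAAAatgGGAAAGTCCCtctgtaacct
X box letters also occurred in Tap2 and Psmb8, CCAAT in Psmb8 and B2m, and letters of a gamma-activated site (TTCNNNGAA, 7.67% of promoters) in Psmb8. None of the letters occurred before Psmb9. A match is a stretch of letters, not evidence of binding.

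Class II transcripts were highest in lung endothelium, varied most in fresh liver endothelium and were lowest after 42 h of culture. Cd74 was at 11.51, 11.22, 12.71, 11.69 and 12.05 in LMEC_0h arrays 18 to 22, and at 10.90, 10.11, 12.03, 9.64 and 8.70 in LSEC_0h arrays 13 to 17. In culture it was at 9.24, 9.66, 9.79 and 8.93 in LSEC_2h arrays 4 to 7, and at 7.08, 6.95, 7.21 and 6.71 in LSEC_42h arrays 1, 2, 3 and 12. All 42 h arrays lay below every other array, and LSEC_0h array 15 reached into the lung range. RT1-Da, the alpha chain of RT1-D, was at 11.10, 11.03, 12.60, 11.68 and 11.96 in LMEC_0h and at 10.61, 9.95, 11.97, 9.31 and 8.28 in LSEC_0h. It was at 10.25, 10.47, 10.69 and 9.90 in LSEC_2h and at 7.79, 7.54, 7.83 and 7.31 in LSEC_42h. The 2 h arrays fell within the wide range of fresh liver cells, and those at 42 h lay below it. RT1-Ba, the alpha chain of RT1-B, was at 9.76, 9.65, 11.85, 10.59 and 10.80 in LMEC_0h and at 9.29, 8.58, 10.82, 8.08 and 7.15 in LSEC_0h. It was at 8.49, 8.80, 8.97 and 8.21 in LSEC_2h and at 6.50, 6.46, 6.47 and 6.23 in LSEC_42h. The same arrays were highest for all 3 genes in the fresh groups: number 20 in lung and number 15 in liver. Control probe sets for added bacterial transcripts, read in the fresh arrays, had means of up to 6.26, so RT1-Ba after 42 h was near the low end of the scale.

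**Figure D1:**
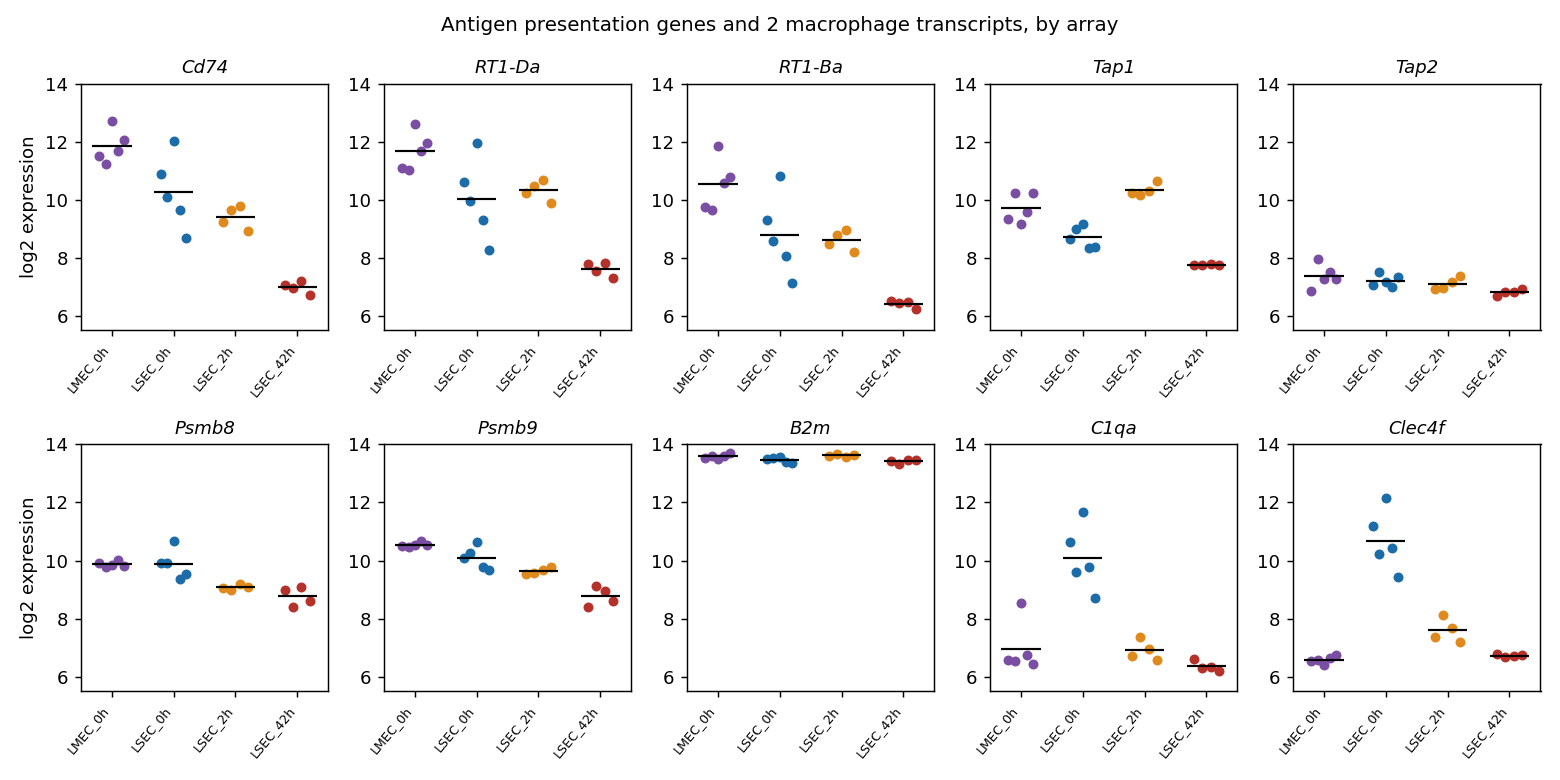
Log2 expression of the 8 antigen presentation genes and of C1qa and Clec4f on each of the 18 arrays (vertical axis, same scale in all panels), by group. Each point is an array and each bar the group mean; Cd74, RT1-Da and RT1-Ba spread widely in LSEC_0h and sit between 6.23 and 7.83 in LSEC_42h, and B2m stays between 13.33 and 13.69.

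Against fresh liver endothelium, lung endothelium had higher levels of 5 of the 8 genes and lower levels of none, where 19.8% of all genes were called higher, 27.7% lower and 47.5% in either direction. The 3 class II genes were among the 5. Cd74 averaged 11.84 ± 0.58 in lung cells (SD, n = 5) and 10.28 ± 1.26 in fresh liver cells (SD, n = 5), a difference of 1.56 (SE 0.44, 2.95-fold, adjusted p = 0.00721, limma). RT1-Da was 3.14-fold higher (1.65, SE 0.48, adjusted p = 0.00866, limma) and RT1-Ba 3.36-fold higher (1.75, SE 0.51, adjusted p = 0.00885, limma). The ranges of the groups overlapped for each of these 3 genes. These are bulk samples, in which fewer cells of a type and less RNA per cell cannot be told apart.

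After 2 h in culture none of the 3 class II genes was called against LSEC_0h in the model without a covariate, although 74% of all genes were. With the mean of C1qa and Clec4f as a covariate, all 3 were called higher, where 33.2% of all genes were called. No LSEC_0h array had a C1qa and Clec4f mean within the range of LSEC_2h, so those calls extend each line beyond the measured arrays. Without the covariate Cd74 differed by -0.87 (SE 0.47, 95% interval -1.86 to 0.11, adjusted p = 0.102, limma), RT1-Da by 0.30 (interval -0.77 to 1.38) and RT1-Ba by -0.17 (interval -1.31 to 0.97). With intervals this wide, moderate changes in either direction were not detectable on these arrays. Without LSEC_0h array 17, the lowest of its group, Cd74 was called lower at 2 h (-1.27, adjusted p = 0.00996, limma).

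After 42 h all 3 class II genes were lower than in LSEC_0h, with no overlap between groups. Cd74 averaged 6.99 ± 0.21 in LSEC_42h (SD, n = 4) and 10.28 ± 1.26 in LSEC_0h (SD, n = 5), and was 9.78-fold lower (-3.29, SE 0.47, adjusted p = 1.45e-05, limma). RT1-Da was 5.3-fold lower (adjusted p = 0.000724, limma) and RT1-Ba 5.17-fold lower (adjusted p = 0.00136, limma). Of the 8 genes 6 were lower and none higher, against 20.8% of all genes lower, 29.7% higher and 50.6% in either direction. The ranges did not overlap for 7 of 8 genes, against 48.7% of all genes. LSEC_42h also lay below LSEC_2h: Cd74 was 5.35-fold (adjusted p = 0.00032), RT1-Da 6.54-fold (adjusted p = 0.000248) and RT1-Ba 4.6-fold lower (adjusted p = 0.00234, limma) at the later time. In that comparison 6 of the 8 genes were called, all lower, against 38.9% of all genes lower, 33.1% higher and 72.1% in either direction.

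**Figure D2:**
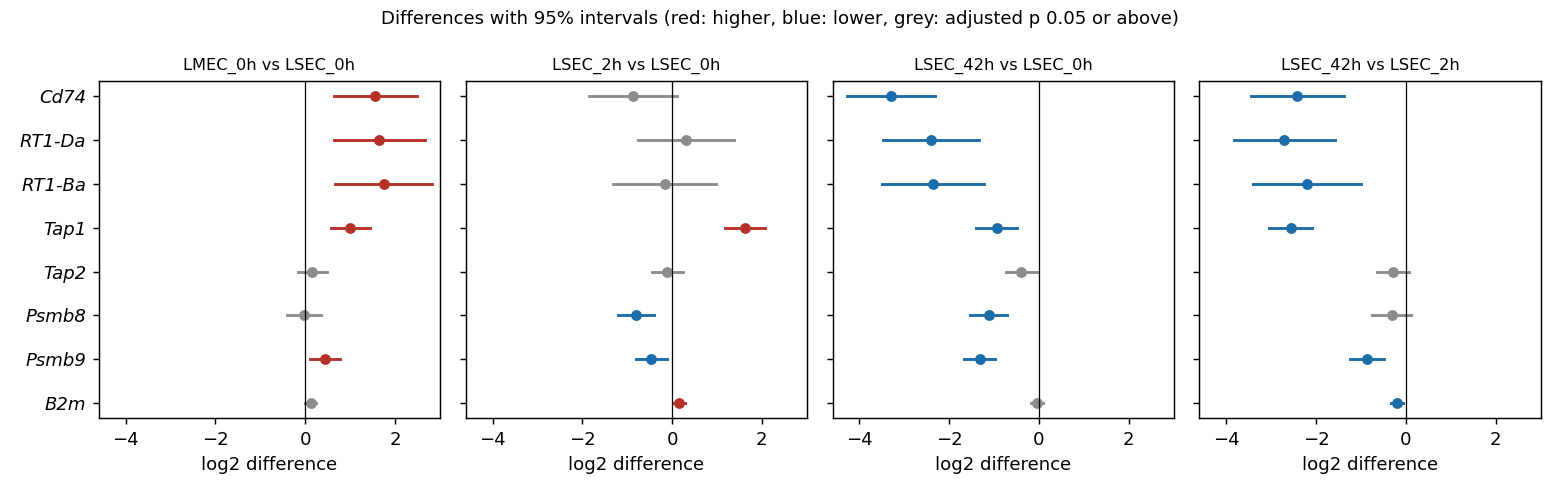
Log2 differences of the 8 genes in 4 comparisons (first-named group minus the second; horizontal axis) with 95% intervals from limma; red is called higher, blue called lower and grey not called. Tap1 is higher in LSEC_2h and lower in LSEC_42h than in LSEC_0h, and the intervals of the class II genes are the widest.

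C1qa and Clec4f had the same highest and lowest fresh liver arrays as the class II genes, but differed the other way between lung and liver. C1qa was at 6.57, 6.53, 8.54, 6.74 and 6.45 in LMEC_0h and at 10.63, 9.62, 11.66, 9.78 and 8.71 in LSEC_0h. It was at 6.71, 7.37, 6.95 and 6.58 in LSEC_2h and at 6.60, 6.30, 6.32 and 6.21 in LSEC_42h. Fresh liver arrays stood above all others. Clec4f was at 6.54, 6.56, 6.40, 6.64 and 6.73 in LMEC_0h and at 11.18, 10.21, 12.15, 10.42 and 9.43 in LSEC_0h. It was at 7.38, 8.14, 7.67 and 7.18 in LSEC_2h and at 6.78, 6.68, 6.71 and 6.74 in LSEC_42h. Within LSEC_0h, array 15 was highest and array 17 lowest for C1qa, Clec4f, Cd74, RT1-Da and RT1-Ba alike. This was not particular to macrophage transcripts. Among the marker lists given further below, array 15 was also the group's highest in the mean of the hepatocyte (10.26) and dendritic cell markers (7.12). It was not the highest for the B cell, T and NK cell, lung epithelial or endothelial markers. In LMEC_0h, array 20 was the highest for C1qa and for all 3 class II genes, but the lowest for Clec4f. Array 20 was also that group's highest for the macrophage and Kupffer cell markers, at 8.14, with the other lung arrays between 7.02 and 7.32. It was the highest as well for the lung epithelial (11.48) and dendritic cell markers (8.42), and barely so for the hepatocyte markers (6.92, against 6.9 in array 21). It was not the highest for the B cell, T and NK cell or endothelial markers. C1qa was 8.65-fold and Clec4f 17.2-fold lower in LMEC_0h than in LSEC_0h (adjusted p = 1.59e-05 and 1.54e-08, limma), the opposite direction to the class II genes. Clec4f, a Kupffer cell lectin, cannot stand for macrophages of the lung. Of 10 macrophage and Kupffer cell markers, 6 were called lower in LMEC_0h than in LSEC_0h, 1 higher and 3 neither. Over all genes 27.7% were lower and 19.8% higher. At 2 h C1qa and Clec4f were 9.05-fold and 8.47-fold lower than in LSEC_0h (adjusted p = 1.17e-05 and 7.73e-07, limma), where no class II gene was called, and at 42 h 13.2-fold and 15.5-fold lower.

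The mean of C1qa and Clec4f was then entered in the model of all genes as a covariate beside the 4 groups, which gives a slope over arrays of the same group. Cd74 had a slope of 1.14 log2 units per log2 unit (SE 0.1, adjusted p = 1.34e-05, limma), RT1-Da of 1.22 (SE 0.13, adjusted p = 2.73e-05) and RT1-Ba of 1.29 (SE 0.14, adjusted p = 4.34e-05). No slope of a class I gene was called; they lay between -0.11 for Tap2 and 0.31 for Psmb8 (adjusted p = 0.337). Slopes were called for 89 of 11016 genes, 0.808%. The class II slopes were 1.13 (SE 0.15), 1.17 (SE 0.18) and 1.24 (SE 0.2) without LSEC_0h array 15. With no LSEC_0h array in the fit they were 1.08 (SE 0.24), 1.07 (SE 0.28) and 1.41 (SE 0.33). In those fits Tap1 had slopes of -0.18 (SE 0.18) and -0.63 (SE 0.25), and Psmb8 of 0.11 (SE 0.13) and 0.01 (SE 0.19). Without LSEC_0h the covariate spanned only 6.48 to 6.69 in LSEC_42h and 6.88 to 7.75 in LSEC_2h. In LMEC_0h array 20 stood alone at 7.47, through C1qa and not Clec4f, with the others between 6.55 and 6.69.

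**Figure D3:**
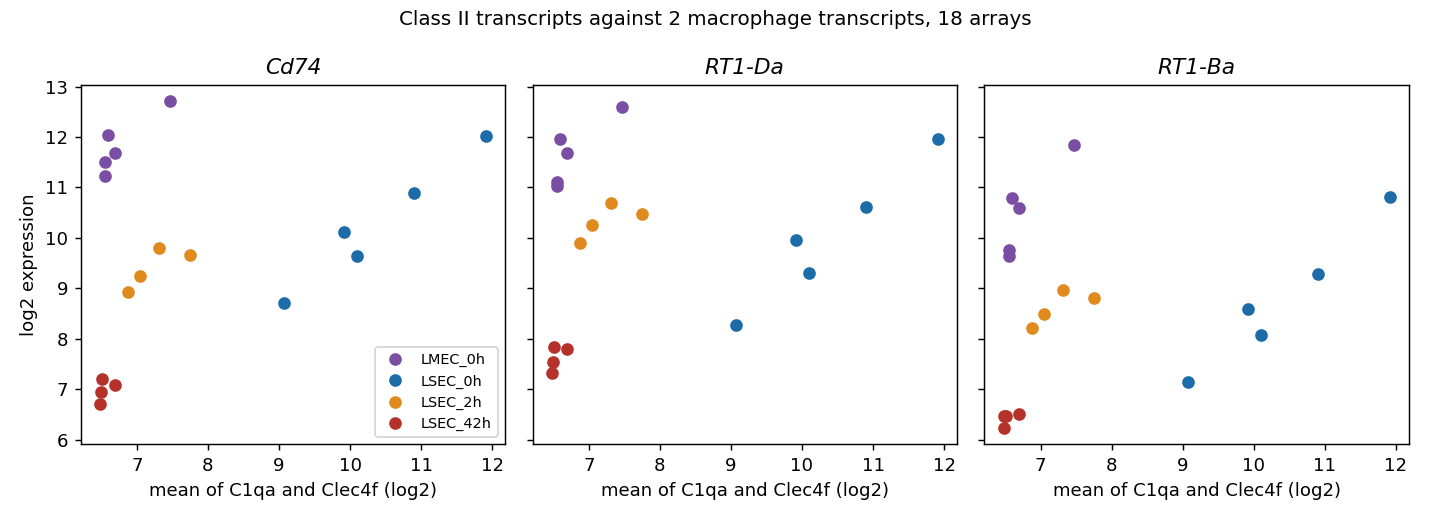
Log2 expression of Cd74, RT1-Da and RT1-Ba (vertical axes) against the mean log2 value of C1qa and Clec4f (horizontal axis), 1 point for each of the 18 arrays, coloured by group. LSEC_0h arrays run between 9.07 and 11.91 on the horizontal axis and all other arrays between 6.48 and 7.75, with LMEC_0h highest on the vertical axes at the low end.

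With the covariate held constant, the class II genes stayed lower in LSEC_42h than in LSEC_2h: Cd74 3.06-fold (adjusted p = 1.74e-06), RT1-Da 3.6-fold (adjusted p = 3.39e-06) and RT1-Ba 2.45-fold (adjusted p = 0.000293, limma). In this comparison 70.2% of all genes were called with the covariate. Against LSEC_0h the covariate turned the direction of several class II differences, with 15.3% of all genes called in lung, 33.2% at 2 h and 12.4% at 42 h. At 42 h Cd74 was then at 1.08 (adjusted p = 0.111), RT1-Da at 2.28 (adjusted p = 0.00974) and RT1-Ba at 2.56 (adjusted p = 0.00881, limma), all above LSEC_0h in place of below it. At 2 h all 3 became calls above LSEC_0h: Cd74 at 2.70 (6.49-fold, adjusted p = 8.5e-05), RT1-Da at 4.12 (17.4-fold, adjusted p = 1.62e-05) and RT1-Ba at 3.86 (14.5-fold, adjusted p = 5.52e-05, limma). In LMEC_0h the differences widened to 51-fold for Cd74, 66.5-fold for RT1-Da and 83.6-fold for RT1-Ba (adjusted p = 9.3e-08, 4.12e-07 and 7.01e-07, limma). No LSEC_0h array had a C1qa and Clec4f mean within the range of another group, so those values extend each line beyond the measured arrays, and how far macrophage RNA contributes to the class II level of fresh liver cells was not tested. The covariate also lay toward the low end of the scale elsewhere. Clec4f was at 6.40 to 6.73 in LMEC_0h and 6.68 to 6.78 in LSEC_42h, and C1qa at 6.21 to 6.60 in LSEC_42h.

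Tap1, a subunit of the peptide transporter, was the class I gene with the widest swing. It was at 9.35, 10.23, 9.18, 9.57 and 10.25 in LMEC_0h and at 8.65, 8.99, 9.18, 8.34 and 8.39 in LSEC_0h. It was at 10.25, 10.15, 10.30 and 10.65 in LSEC_2h and at 7.77, 7.76, 7.79 and 7.75 in LSEC_42h. Each culture time was separate from LSEC_0h, above it at 2 h and below it at 42 h, and the 42 h arrays averaged 7.77 ± 0.02 (SD, n = 4). Tap1 averaged 10.34 ± 0.22 in LSEC_2h (SD, n = 4) and 8.71 ± 0.37 in LSEC_0h (SD, n = 5), and was 3.09-fold higher at 2 h (1.63, SE 0.22, adjusted p = 3.21e-06, limma). It was 1.92-fold lower in LSEC_42h than in LSEC_0h (-0.94, SE 0.22, adjusted p = 0.00138, limma), and 5.92-fold lower than in LSEC_2h (adjusted p = 3.75e-08, limma). In LMEC_0h it was 2.01-fold higher than in LSEC_0h (adjusted p = 0.000499, limma), the lowest lung array and the highest liver array both being at 9.18. With the C1qa and Clec4f covariate Tap1 kept its call at 2 h (1.85, adjusted p = 0.00881, limma), and the calls at 42 h (-0.67, adjusted p = 0.511) and in lung (1.26, adjusted p = 0.132, limma) were lost, within the same limit.

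Tap2, the partner subunit, differed less. It was at 6.86, 7.97, 7.27, 7.50 and 7.28 in LMEC_0h and at 7.08, 7.51, 7.17, 6.98 and 7.33 in LSEC_0h. It was at 6.94, 6.97, 7.16 and 7.38 in LSEC_2h and at 6.70, 6.84, 6.82 and 6.93 in LSEC_42h. The 42 h arrays lay just below all others from liver, and lung, fresh liver and 2 h arrays overlapped. The difference of LSEC_42h from LSEC_0h was -0.39 (SE 0.16, adjusted p = 0.0552, limma), and that of LSEC_2h from LSEC_0h was -0.10 (adjusted p = 0.583, limma). Array medians were between 7.099 and 7.19, so Tap2 lay near the middle of the array's values.

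Psmb8 and Psmb9, inducible catalytic subunits of the immunoproteasome, were lower at both culture times, calls that were lost with the C1qa and Clec4f covariate. Psmb8 was at 9.91, 9.76, 9.83, 10.01 and 9.81 in LMEC_0h and at 9.93, 9.93, 10.66, 9.38 and 9.55 in LSEC_0h. It was at 9.06, 9.0, 9.19 and 9.08 in LSEC_2h and at 8.98, 8.39, 9.09 and 8.60 in LSEC_42h. Both culture groups lay below all fresh arrays. Psmb9 was at 10.50, 10.45, 10.52, 10.67 and 10.54 in LMEC_0h and at 10.09, 10.27, 10.63, 9.76 and 9.69 in LSEC_0h. It was at 9.52, 9.57, 9.66 and 9.78 in LSEC_2h and at 8.41, 9.11, 8.94 and 8.61 in LSEC_42h. The 2 h arrays overlapped the lower fresh liver arrays, and the 42 h arrays lay below both.

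At 2 h Psmb8 was 1.75-fold lower than in LSEC_0h (-0.81, SE 0.19, adjusted p = 0.00119, limma) and Psmb9 1.37-fold lower (-0.46, SE 0.17, adjusted p = 0.0196, limma). The call of Psmb9 was lost without LSEC_0h array 15 (adjusted p = 0.0586, limma), the array with the most C1qa and Clec4f, and without LSEC_2h array 4 (adjusted p = 0.0515, limma). With Tap1 and B2m higher, 4 of the 8 genes were called at 2 h, in both directions, where 41.4% of all genes were higher and 32.7% lower. Tap1 and Psmb9 are divergent neighbours whose starts in the RefSeq promoter table lie 456 bases apart, so that the searched windows share 44 bases. At 2 h Tap1 was higher and Psmb9 lower. At 42 h Psmb8 was 2.18-fold lower (adjusted p = 0.000109, limma) and Psmb9 2.5-fold lower than in LSEC_0h (adjusted p = 3.96e-06, limma). With the covariate, and with the same extension beyond the measured arrays, Psmb8 was at 0.17 at 2 h (adjusted p = 0.724) and 0.07 at 42 h (adjusted p = 0.939), and Psmb9 at 0.22 (adjusted p = 0.613) and -0.49 (adjusted p = 0.477, limma). In LMEC_0h Psmb9 was 1.36-fold higher than in LSEC_0h (0.45, SE 0.16, adjusted p = 0.0262, limma), a call lost without LMEC_0h array 21 or LSEC_0h array 16 or 17 (adjusted p 0.0573 to 0.0828). Psmb8 differed by -0.03 (interval -0.41 to 0.36, adjusted p = 0.922, limma) between those groups.

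After 42 h the non-inducible subunits of the proteasome core were higher where the inducible ones were lower, while at 2 h members of both kinds lay on both sides of 0. Most of these non-inducible subunits, Psma1, Psma2 and Psma4 among them, are part of the immunoproteasome too. Of 10 non-inducible subunits measured, all 10 were higher in LSEC_42h than in LSEC_0h, against 29.7% of all genes, with a median difference of 0.88 against 0.05 over all genes. Psma2 was 2.94-fold, Psma1 2.28-fold and Psma4 2.27-fold higher (adjusted p = 2.21e-09, 1.95e-08 and 1.99e-07, limma); these build the outer rings. Psmb5, a constitutive catalytic subunit whose place Psmb8 takes in the immunoproteasome, was 1.82-fold higher in LSEC_42h than in LSEC_0h (adjusted p = 1.68e-06, limma). Against LSEC_2h, where it was lower than in LSEC_0h, Psmb5 was 3.07-fold higher in LSEC_42h (adjusted p = 1.63e-09, limma). Psmb10, the other inducible subunit, was between 8.24 and 8.78 in LSEC_42h and between 8.81 and 9.39 in LSEC_0h, and was 1.45-fold lower (adjusted p = 0.00137, limma); at 2 h it differed by 0.13 (adjusted p = 0.363, limma). At 2 h 5 non-inducible subunits were higher and 2 lower than in LSEC_0h, where 41.4% of all genes were higher and 32.7% lower, with Psmb2 1.8-fold higher (adjusted p = 7.1e-08) and Psmb5 1.69-fold lower (adjusted p = 3.82e-06, limma). In LMEC_0h 6 of 10 were higher than in LSEC_0h and none lower, against 19.8% and 27.7% of all genes, by at most 1.35-fold for Psmb7 (adjusted p = 0.000892, limma).

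**Figure D4:**
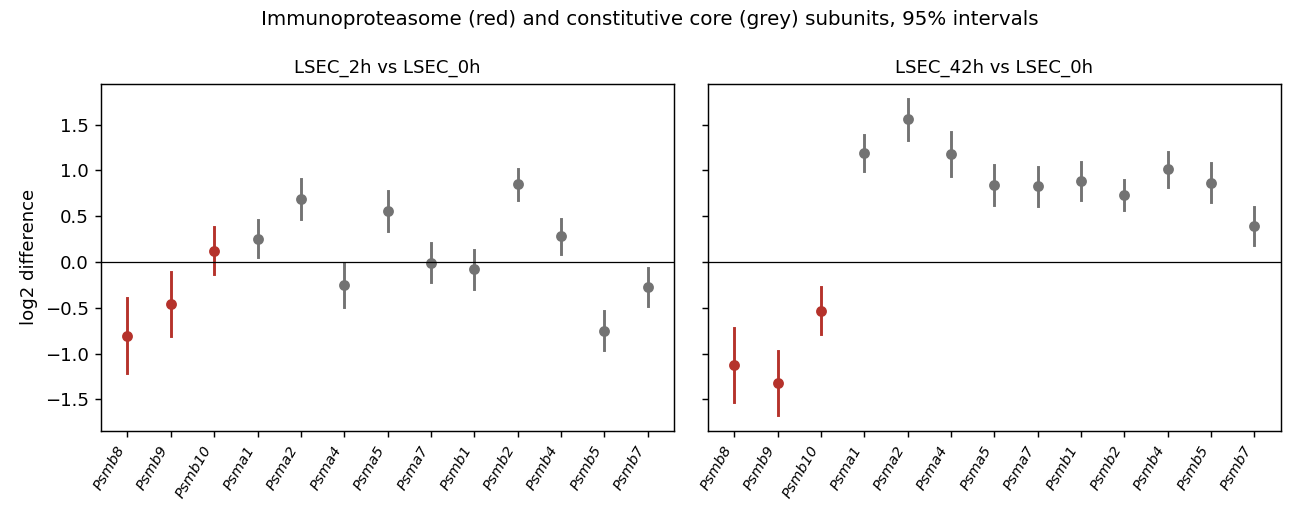
Log2 differences with 95% intervals from limma (vertical axis) of 3 inducible (red) and 10 non-inducible (grey) proteasome core subunits, for LSEC_2h and LSEC_42h against LSEC_0h. At 42 h the red subunits lie below 0 and all grey ones above it; at 2 h the grey ones fall on both sides.

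B2m, the class I light chain, was high on every array and moved little. It was at 13.54, 13.61, 13.48, 13.61 and 13.69 in LMEC_0h and at 13.48, 13.53, 13.55, 13.38 and 13.37 in LSEC_0h. It was at 13.60, 13.68, 13.58 and 13.64 in LSEC_2h and at 13.43, 13.33, 13.47 and 13.47 in LSEC_42h. The 2 h arrays lay above all other liver arrays. B2m was 1.12-fold higher in LSEC_2h than in LSEC_0h (0.16, SE 0.06, adjusted p = 0.0272, limma), a call lost without LSEC_0h array 16 or 17 or LSEC_2h array 5 or 7 (adjusted p 0.0542 to 0.0811) and with the covariate (adjusted p = 0.146, limma). It was 1.15-fold lower in LSEC_42h than in LSEC_2h (adjusted p = 0.0132, limma), and at 42 h differed from LSEC_0h by -0.04 (adjusted p = 0.676, limma). The highest value on any array was between 13.48 and 13.69, so B2m stood at the upper end of the scale. How far that end limits its differences was not tested.

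Across the 4 groups the genes followed several orders. Cd74 ran from LMEC_0h, the highest, through LSEC_0h and LSEC_2h to LSEC_42h. RT1-Da and RT1-Ba had the same ends. For all 3 no difference between LSEC_2h and LSEC_0h was called without the macrophage covariate, so their order is not settled. Tap1 was highest in LSEC_2h, 1.54-fold above LMEC_0h (adjusted p = 0.0152, limma), and lowest in LSEC_42h. Against LMEC_0h, all 8 genes were lower in LSEC_42h, where 22% of all genes were lower and 61.8% called in either direction, with Cd74 28.8-fold, RT1-Ba 17.3-fold and RT1-Da 16.7-fold lower, Tap2 1.47-fold and B2m 1.12-fold lower (adjusted p = 0.0372, limma). The B2m call was lost with the covariate (adjusted p = 0.0529) and without LMEC_0h array 19, 21 or 22 or LSEC_42h array 1 or 2 (adjusted p 0.0547 to 0.101, limma). Against LMEC_0h, LSEC_2h had lower Cd74 (5.39-fold), RT1-Ba (3.77-fold) and RT1-Da (2.54-fold), and of the 8 genes 5 were lower and 1, Tap1, higher, against 30.6% of all genes lower, 43% higher and 73.7% in either direction. Without LSEC_2h array 7 the calls of Tap1 (adjusted p = 0.0567) and RT1-Da (adjusted p = 0.0666, limma) were lost, and that of RT1-Da also without LMEC_0h array 20 (adjusted p = 0.064) and with array weights (adjusted p = 0.0816, limma). The comparisons that share LSEC_0h, LSEC_2h, LSEC_42h or LMEC_0h arrays are not independent of each other.

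Other genes of the class II pathway were divided. Of 17 measured, 3 were higher and 3 lower in LMEC_0h than in LSEC_0h, with a median of -0.07 against -0.04 over all genes; 47.5% of all genes were called. The chains RT1-Bb (7.81-fold, adjusted p = 7.41e-05) and RT1-Db1 (2.88-fold, adjusted p = 0.00057) and the endosomal protease Ctse (2.18-fold, adjusted p = 4.21e-05, limma) were higher, and the endosomal protease Lgmn was 4.23-fold lower (adjusted p = 1.8e-07, limma). At 2 h 4 were higher and 6 lower than in LSEC_0h, where 74% of all genes were called. Ciita, the class II transactivator, averaged 7.41 ± 0.05 in LSEC_2h (SD, n = 4) and 6.94 ± 0.05 in LSEC_0h (SD, n = 5), and was 1.39-fold higher (adjusted p = 4.79e-07, limma). The costimulatory molecules Cd86 (1.51-fold, adjusted p = 0.000278) and Cd80 (1.19-fold, adjusted p = 0.000124) were also higher, while the thiol reductase Ifi30 (2.53-fold, adjusted p = 3.09e-07) and the peptide exchange chain RT1-DMb (2.15-fold, adjusted p = 0.00109, limma) were lower. Other class II regulators measured were not higher. Rfxap (1.57-fold, adjusted p = 4.02e-05), Nfyc (1.49-fold, adjusted p = 1.14e-06) and Nfya (1.35-fold, adjusted p = 0.0016, limma) were lower, and Rfxank and Nfyb were not called. Cd80 was near the low end of the scale in both groups, with means of 6.225 in LSEC_2h and 5.977 in LSEC_0h. At 42 h none was higher and 7 were lower than in LSEC_0h, against 29.7% and 20.8% of all genes, with a median of -0.12 against 0.05. They included Ctss, the protease that trims Cd74, at 3.99-fold (adjusted p = 0.000753), RT1-DMb at 2.54-fold (adjusted p = 0.000355) and RT1-Db1 at 1.81-fold (adjusted p = 0.0386, limma). Nfya was 1.63-fold and Nfyc 1.33-fold lower (adjusted p = 3.54e-05 and 7.85e-05, limma). RT1-Db1 was between 6.05 and 6.15 in LSEC_42h, near the low end of the scale. Ciita was then 1.3-fold lower than at 2 h (adjusted p = 1.44e-05, limma).

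Other genes of the class I pathway were more often lower than higher in culture. Of 21 measured, 5 were higher and 12 lower at 2 h than in LSEC_0h, with a median of -0.31 against 0.08 over all genes, of which 41.4% were higher and 32.7% lower. The chaperones Calr (3.13-fold, adjusted p = 3.62e-08) and Canx (2.77-fold, adjusted p = 3.31e-10), which help fold the heavy chain, and the neonatal Fc receptor chain Fcgrt (3.35-fold, adjusted p = 1.08e-05, limma) were lower. The chaperone Hspa5 was 2.46-fold higher (adjusted p = 4.91e-05, limma). At 42 h none was higher and 8 were lower than in LSEC_0h, against 29.7% and 20.8% of all genes, with a median of -0.11 against 0.05. Among them were the heavy chain genes RT1-S3 (4.39-fold, adjusted p = 1.01e-07) and RT1-T24-4 (2.91-fold, adjusted p = 6.9e-07, limma). In LMEC_0h 3 were higher and 7 lower than in LSEC_0h, close to the 47.5% called over all genes, with Fcgrt 8.03-fold lower (adjusted p = 1.24e-08, limma).

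RT1 genes form a large family of near copies that differs between rat strains, so a probe set may read several of them or miss an allele, and the values of single RT1 genes are uncertain. Some probe sets were low on lone arrays. RT1-A2 and RT1-CE5, picked after their values were seen, were at 6.09 and 6.22 in LSEC_42h array 2, and at 6.48 and 6.54 in LMEC_0h array 22. The other arrays of those groups had RT1-A2 between 9.88 and 10.49 at 42 h and between 10.69 and 11.87 in lung. RT1-Bb was at 5.86 in LSEC_0h array 15, against 6.84 to 9.09 in the other LSEC_0h arrays, on the array where RT1-Ba was the group's highest at 10.82. Without that array RT1-Bb was 5.81-fold higher in LMEC_0h than in LSEC_0h (adjusted p = 0.000133, limma), and its difference at 42 h became a call (3.01-fold lower, adjusted p = 0.00838, in place of 2.24-fold, adjusted p = 0.0714, limma). RT1-A2 was 4.82-fold lower in LSEC_42h than in LSEC_0h (adjusted p = 0.061, limma) and 2.34-fold lower without LSEC_42h array 2 (adjusted p = 0.274, limma).

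**Figure D5:**
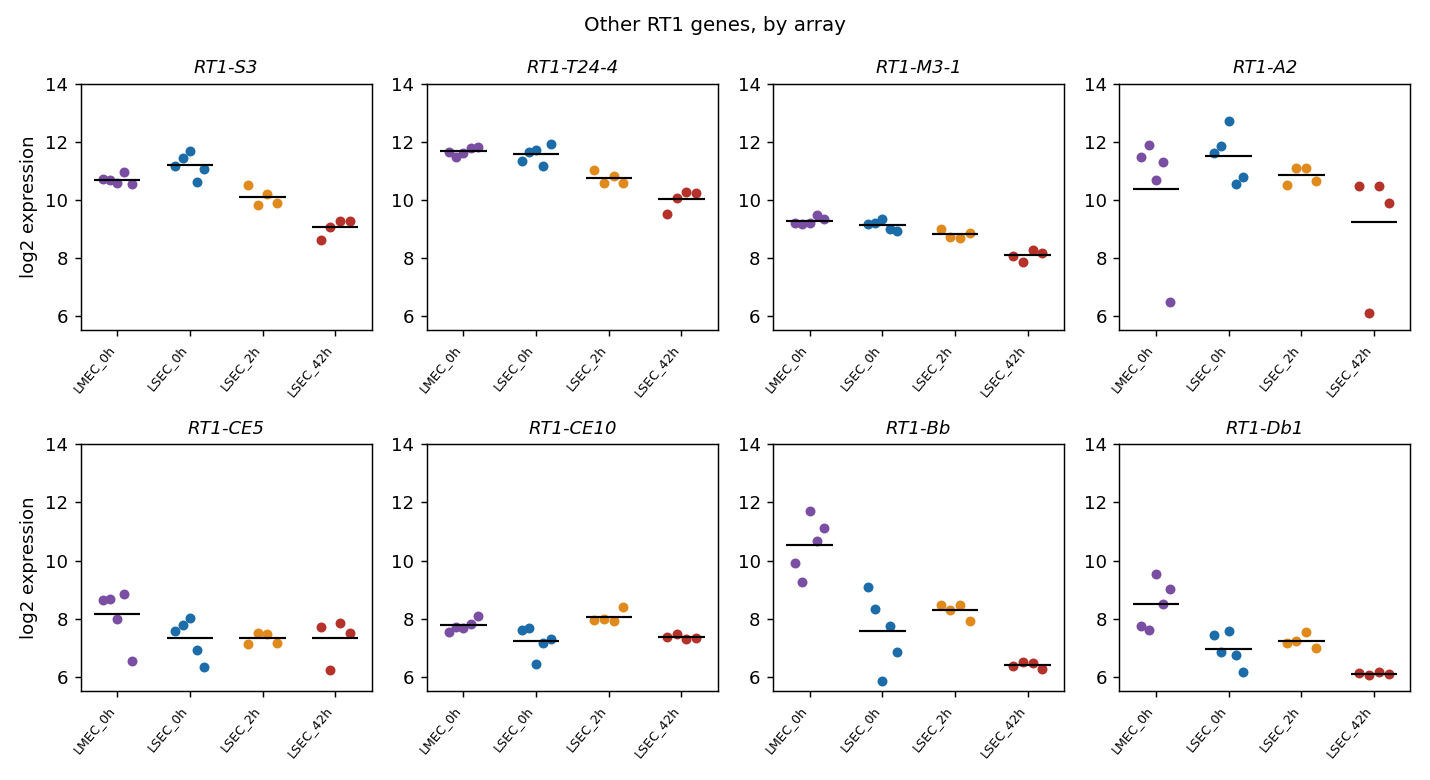
Log2 expression of 8 further RT1 genes on each of the 18 arrays (vertical axis, same scale in all panels), by group, with bars at the group means. RT1-A2 and RT1-CE5 are low in LSEC_42h array 2 and LMEC_0h array 22, and RT1-Bb is lowest in LSEC_0h array 15.

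Interferon response genes, many of which share inducers with Tap1 and the immunoproteasome, were mostly higher at 2 h and lower at 42 h than in fresh liver cells. Of 32 measured, 23 were higher and 2 lower in LSEC_2h than in LSEC_0h, with a median of 1.19 against 0.08 over all genes, of which 41.4% were higher and 32.7% lower. The chemokines Cxcl11 (66.2-fold, adjusted p = 1.3e-13), Cxcl10 (17.5-fold, adjusted p = 7.61e-06) and Cxcl9 (6.72-fold, adjusted p = 0.00016) and the GTPase Gbp2 (6.74-fold, adjusted p = 3.95e-05, limma) were higher. The 2 lower genes were Ifnar1 (2.65-fold, adjusted p = 3.25e-07) and Jak1 (1.63-fold, adjusted p = 8.54e-05, limma). At 42 h 22 were lower and 2 higher than in LSEC_0h, against 20.8% and 29.7% of all genes, with a median of -1.1 against 0.05. Irf7 (5.69-fold, adjusted p = 7.53e-05) and Irf1 (3.98-fold, adjusted p = 1.06e-07), both transcription factors of the response, and Isg15, a ubiquitin-like modifier (5.46-fold, adjusted p = 5.25e-06, limma), were lower, while the receptor chain Ifngr1 was 2.74-fold higher (adjusted p = 4.67e-08, limma). In LMEC_0h 7 were higher and 3 lower than in LSEC_0h, fewer than the 47.5% called over all genes, with Gbp2 7.23-fold (adjusted p = 3.06e-05) and Irf1 2.66-fold higher (adjusted p = 2.31e-06, limma). Jak1 was 3.11-fold (adjusted p = 3.16e-09) and Ifit2 2.27-fold lower there (adjusted p = 0.000287, limma).

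Markers of other cells moved with the groups as well, and their part in these results was not tested. The mean level of 10 measured macrophage and Kupffer cell markers was between 7.02 and 8.14 in LMEC_0h arrays and between 7.94 and 10.49 in LSEC_0h arrays, then between 7.04 and 7.57 at 2 h and between 6.46 and 6.74 at 42 h. For 4 dendritic cell markers it was 7.29 to 8.42 in LMEC_0h and 6.64 to 7.12 in LSEC_0h, then 7.83 to 7.96 at 2 h and 6.66 to 7.06 at 42 h. Cd83 differed most, with medians of 9.73 in LMEC_0h, 7.6 in LSEC_0h and 10.07 in LSEC_2h. In the same order the medians were 6.45, 6.27 and 7.2 for Flt3, 7.36, 7.28 and 7.92 for Batf3, and 6.71, 6.29 and 6.34 for Clec10a. Of the 4 dendritic cell markers, 3 were called higher in LMEC_0h than in LSEC_0h, against 19.8% of all genes, and 3 at 2 h, against 41.4%. At 42 h 1 was higher and 1 lower, against 29.7% and 20.8% of all genes. For 4 B cell markers the mean level was 6.36 to 6.92 in LMEC_0h, against 5.94 to 6.03 in LSEC_0h, 5.97 to 6.12 in LSEC_2h and 5.83 to 5.88 in LSEC_42h. The 11 T and NK cell markers were at 6.35 to 7.45 in LMEC_0h and 6.43 to 6.58 in LSEC_0h, then at 7.26 to 7.76 at 2 h and 6.26 to 6.29 at 42 h. Lung epithelial markers (9) were at 9.89 to 11.48 in LMEC_0h, against 6.14 to 6.19 in LSEC_0h, 6.31 to 6.4 in LSEC_2h and 6.09 to 6.2 in LSEC_42h. Hepatocyte markers (8) were at 6.73 to 6.92 in LMEC_0h, 8.82 to 10.26 in LSEC_0h, 7.23 to 10.82 in LSEC_2h and 6.36 to 6.64 in LSEC_42h. The 9 endothelial markers were high in all groups, at 10.67 to 11.14 in LMEC_0h and 11.08 to 11.28 in LSEC_0h, then 10.11 to 10.48 at 2 h and 9.9 to 10.59 at 42 h.

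Technical readings also divided cultured from fresh arrays. The mean of 24 probe sets for bacterial transcripts that are added during labelling was 7.62 to 8.37 in LSEC_2h and 7.68 to 7.86 in LSEC_42h, against 5.66 to 5.68 in LMEC_0h and 5.72 to 5.74 in LSEC_0h. Culture and any difference in sample preparation behind these readings cannot be told apart. The 3' probe set of beta-actin exceeded the 5' one by 1.65 ± 0.03 in LSEC_2h and 1.85 ± 0.04 in LSEC_42h (SD, n = 4 each), against 1.02 ± 0.15 in LSEC_0h (SD, n = 5), and 1.04 ± 0.16 in LMEC_0h (SD, n = 5). A wider gap is commonly read as less complete cDNA or RNA, and its part in the culture differences was not tested.

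Among 5695 genes above the array median, those most like each member over the 18 arrays were listed by Pearson's r, a description over 4 groups whose arrays share cells and preparation. Cd74 was most like Id2 (r = 0.953), Ly6c (0.942) and Cfb (0.934), a complement factor. RT1-Ba was most like RT1-Db1 (0.949), Plaat3 (0.94) and Id2 (0.925), and RT1-Da like Plaat3 (0.941), Id2 (0.931) and RT1-Db1 (0.928). Tap1 was most like Vcam1 (0.972), an adhesion molecule of activated endothelium, Ccrl2 (0.964) and Apol9a (0.962). Psmb9 was most like Ube2l6 (0.949), Ly6c (0.938) and Faxdc2 (0.927), and Psmb8 like Ifi35 (0.899), Cnp (0.898) and Ccl6 (0.897). B2m was most like Mocos (0.908), Gbp2 (0.878) and Evl (0.854), and Tap2 like Zbtb2 (0.899), Prdm4 (0.89) and Rnf10 (0.867). Among the members the class II genes were closest, with r = 0.987 for RT1-Da with RT1-Ba and 0.979 for Cd74 with RT1-Ba. Cd74 with Psmb9 reached 0.95, while Tap1 with Psmb9 reached 0.57, Tap1 with Tap2 0.523 and Tap1 with Psmb8 0.288.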

How the data were processed

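Total RNA was labelled as biotin cRNA and hybridised to Affymetrix rat arrays, per the labels' protocols. The authors deposited log2 expression per probe set; how they corrected background, normalized and summarised probe sets is not given in the sources used here. Values were used as deposited. Of 11484 probe sets, 57 were array controls, and the 11018 with 1 gene symbol in the platform annotation were tested. 409 gene probe sets without a symbol were left out. A linear model of all 18 arrays with a mean for each group was fitted with limma 3.58.1 in R 4.3.3, allowing an intensity trend. Tests were two-sided with Benjamini-Hochberg adjustment over all genes. The script was tested on simulated data. The number of arrays limits the precision. Alternatives were quantile normalization, a filter on dim genes, array weights, 2 groups at a time, the C1qa and Clec4f covariate and leaving out each array. The members and lists were chosen with earlier results of these data known. Genes named from the lists were mostly called members whose groups did not overlap, up to 5 in each direction. Not every such gene was named. The 3 genes most like each member were all named. Some genes of the lists, Psmb10 among them, were named outside this rule after their values were seen. Lists are described by counts and medians, with no set test. Promoters and positions are from RefSeq, GRCr8.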

Additional observations from a re-analysis of the deposited data

Results flagged for a closer look

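Of 40 sets of arrays (10 genes in 4 groups), 2 held an array apart from the rest of its group by Dixon's criterion, which chance meets in about 1 in 20 sets. C1qa was at 8.54 in LMEC_0h array 20, while the other lung arrays lay between 6.45 and 6.74. That array also had the group's highest Cd74, RT1-Da and RT1-Ba. RT1-Ba was at 6.23 in LSEC_42h array 12, while the others of its group lay between 6.46 and 6.50, near the low end of the scale.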

How the results depend on the processing

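With the C1qa and Clec4f covariate the genes called numbered 1681 in place of 5235 (LMEC_0h against LSEC_0h), 3653 in place of 8158 (LSEC_2h against LSEC_0h) and 1364 in place of 5570 (LSEC_42h against LSEC_0h), and 2 of the 8 genes in place of 6 were called in the last. Directions then turned for Psmb8 (1.10) and Tap2 (-0.22) in lung; for Cd74 (2.70), RT1-Ba (3.86), Psmb8 (0.17) and Psmb9 (0.22) at 2 h; and for Cd74 (1.08), RT1-Da (2.28), RT1-Ba (2.56), Psmb8 (0.071) and B2m (0.10) at 42 h. With only the 6800 brighter genes, 5102 (LSEC_2h against LSEC_0h), 4958 in place of 7939 (LSEC_42h against LSEC_2h) and 4935 in place of 8116 (LSEC_2h against LMEC_0h) were called; fewer genes were tested. Other turns were of uncalled differences. Psmb8 in lung turned with array weights (0.007), without LMEC_0h array 19 (0.001), without LSEC_0h array 15 (0.168) and without LSEC_0h array 15 and LMEC_0h array 20 together (0.178); leaving out single arrays gave -0.153 to 0.168. RT1-Ba at 2 h turned with quantile normalization (0.014), without LSEC_0h array 15 and without both (0.34 each), with -0.576 to 0.34 over single arrays. RT1-Da at 2 h turned without LSEC_0h array 17 (-0.133 to 0.79 over single arrays), and B2m in LSEC_2h against LMEC_0h was 0 with quantile normalization. The causes were not tested. Leaving out single arrays gave 4798 to 5086 genes called (LMEC_0h against LSEC_0h), 7781 to 8145 (LSEC_2h against LSEC_0h), 5050 to 5278 (LSEC_42h against LSEC_0h), 7518 to 7825 (LSEC_42h against LSEC_2h), 6353 to 6824 (LSEC_42h against LMEC_0h) and 7828 to 8230 (LSEC_2h against LMEC_0h), and of the 8 genes 4 to 5, 3 to 4, 6 to 7, 6 to 6, 7 to 8 and 4 to 7 in the same order. Tap2 at 42 h was called with dim genes left out (adjusted p = 0.046), 2 groups at a time (0.00834), array weights (0.0241) and without LSEC_0h array 16 (0.0404, limma). Leaving out 2 arrays together was chosen after seeing the data. No paired analysis was possible because the groups share no replicate numbers.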
